A study of Mus musculus with 18 samples.

Results

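The traditional medicine Pien Tze Huang (PZH) was given by mouth to mice whose livers were being injured with carbon tetrachloride (CCl4), and the circular RNAs of those livers were compared with the circular RNAs of mice given CCl4 without it. The comparison takes the 6 CCl4+PZH libraries and the 6 CCl4 libraries, 12 of the 18 libraries of the series, and covers all 434 circular RNAs of the deposited table. All mice were male C57BL/6, 6 weeks old at the start. Of 45 mice in 3 groups of 15, 6 per group were sequenced in week 22. The CCl4 mice had water by gavage each day and CCl4 into the abdomen 2 times a week; the CCl4+PZH mice had PZH by gavage once a day with the same injections. Both groups therefore carry the injury, and the 6 control mice, given water and olive oil, are not part of the comparison. The labels call CCl4 a model of liver cancer, and whether tumour or surrounding liver was taken is not given in the sources used here. The labels of the treated samples write PTH where the series' design text writes PZH, and both were taken as one treatment. Mice are named by the number in their label.

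A circular RNA arises when the splicing machinery joins a downstream splice donor to an upstream acceptor, so that the transcript closes on itself. With no free end it resists the enzymes that degrade linear RNA from its ends, and it is counted from the few reads that cross the back-splice junction. CCl4 is turned by cytochrome P450 enzymes of the hepatocyte into a radical that damages membranes and kills cells around the central vein, and repeated doses lead to inflammation, scarring and regeneration. A circular RNA is named here by the gene that contains it, its host. Its abundance need not follow that of the host's messenger RNA, which was not used here.

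No circular RNA passed the threshold when PZH was added to CCl4. By limma, with Benjamini-Hochberg adjustment over all 434, 0 were called (0%). The nearest was a circular RNA of Bckdhb, a subunit gene of the enzyme complex that commits branched-chain amino acids to breakdown. It was the only one of the 434 (0.23%) whose 6 treated livers all lay above the 6 others. Values that did not pass included higher levels of circular RNAs of Msrb3, Arih1, Ttc39c, Egfr and Cyp1a2 in treated livers, and lower levels of a circular RNA of Psd3 and one of Golph3.

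The libraries were shallow in circular RNA. Levels are in CPM, read counts scaled to a library total set by the authors, and each library's values were whole multiples of what 1 read is worth there. Recovered this way, 930 to 1481 back-splice reads made up a CCl4 library and 1194 to 1869 a CCl4+PZH library, 16274 in all. The median non-zero value was 3 reads and 31.0% of the values were 0. A value of 0 allows up to 3 reads, which is 0.262 to 0.438 CPM in the CCl4 libraries and 0.291 to 0.515 CPM in the others, counting error only. From the value of 1 read, the scaling totals work out at 6.85 to 11.4 M reads in CCl4 and 5.82 to 10.3 M reads in CCl4+PZH. All 30 pairs of libraries of the same group differed by more than counting noise, with a lowest chi-square of 2.11 per degree of freedom. Each library is taken as 1 mouse. The exact permutation p-values rest on the differences between these mice. The limma p-values use a spread pooled over all 434 circular RNAs, with a median of 4340 degrees of freedom. They therefore do not measure the spread of a single circular RNA between the mice. With that spread unpooled, 0 were called after adjustment.

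Summed over the table, circular RNA stood at 85.5 to 184 CPM in CCl4 livers and at 116 to 251 CPM in CCl4+PZH livers. The lowest were CCl4 8 (85.5 CPM) and CCl4+PZH 1 (116 CPM), and every other treated library lay above every CCl4 library. The means were 149 ± 36.4 and 208 ± 50.0 CPM (SD, n = 6 each), a difference of 59.0 CPM with a two-sided exact permutation p of 0.0455. Adjusted over the 2 measures taken per library the exact permutation p was 0.0909, which did not pass. Without CCl4+PZH 1 the difference was 77.4 CPM (adjusted exact p = 0.00433), and without both of those low libraries it was 64.8 CPM (adjusted exact p = 0.0159). Without CCl4 8 alone it was 46.4 CPM (adjusted exact p = 0.186), and no other single library left out passed (adjusted exact p = 0.0736 to 0.182). The number of circular RNAs above 0 was 289 ± 20.3 in the 6 CCl4 livers and 310 ± 24.8 in the 6 treated ones (SD; exact permutation p and adjusted p = 0.13). Thinned to 930 reads in every library, the smallest number recovered, these numbers were 267 ± 6.07 and 274 ± 10.4 (SD, n = 6 each). In bulk tissue, fewer cells of a type and less RNA per cell cannot be told apart.

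**Figure D1:**
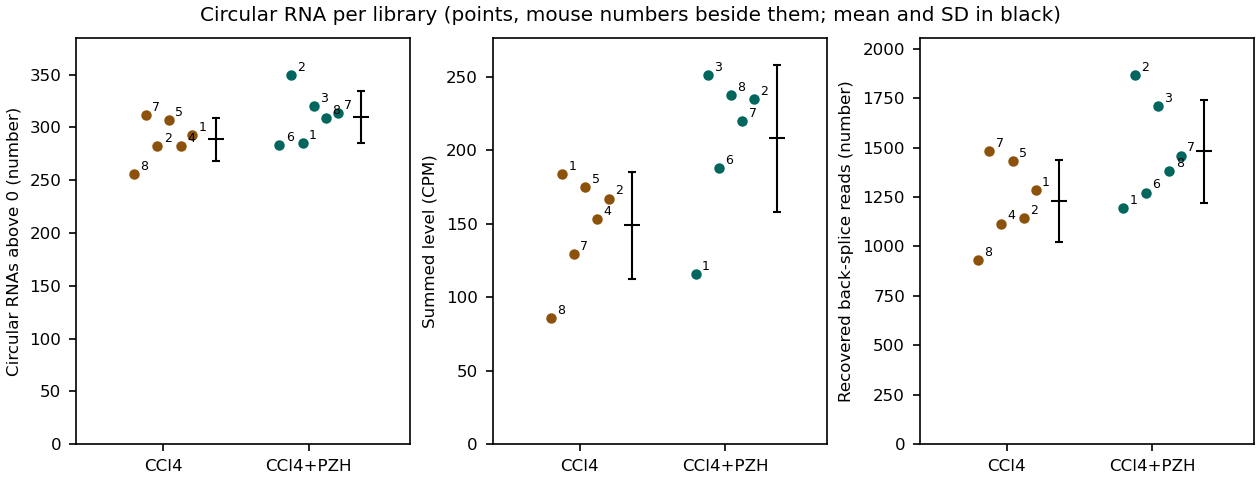
Circular RNAs above 0 (left, number), summed level (middle, CPM) and recovered back-splice reads (right, number) for each of the 12 livers, with the mouse number beside each point and the group mean and SD in black (n = 6). The 2 groups overlap in all 3 measures, and CCl4+PZH 1 (116 CPM) lies apart from the other treated livers in the middle panel.

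Across the 434, 303 log2 differences were above 0 (69.8%) and 131 below, with a median of 0.23 on the log2(CPM + 0.14) scale and a range from −1.46 to 2.44. This lean changed with the scaling, and its cause was not tested. Rescaled to the table's own sum, 51.4% were above 0 and the median was 0.03; rescaled by the trimmed mean of M-values (TMM) the share was 54.8%, after quantile normalization 49.3%, by edgeR with TMM 54.1% and by DESeq2 44.5%, the last with a median of −0.11. Adding each library's summed level to the fit gave 53.0%. These settings bring the libraries to a common level, which would also take out a real shift shared by most circular RNAs. By edgeR with the implied totals, which keep the authors' scale, 69.8% were above 0 and the median was 0.48. At an unadjusted limma p under 0.05 there were 31 (7.14%), 24 higher in treated livers (5.53%) and 7 lower (1.61%). After rescaling to the table sum the unadjusted split was 13 higher and 12 lower, after TMM 13 and 10, after quantile normalization 12 and 14, by edgeR with TMM 10 and 7, by DESeq2 9 and 13, by edgeR with the implied totals 21 and 2, and with the summed level in the fit 7 and 9. Each of these called 0 after adjustment, as did an exact rank test (17 at an unadjusted p under 0.05, smallest p = 0.00216). Differences given below for single circular RNAs are on the authors' scale, where the median of all 434 was 0.23. Rescaling did not take the same amount from each. With the table sum the median went from 0.23 to 0.03, and the Bckdhb circular RNA described next went from 2.44 to 2.05.

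**Figure D2:**
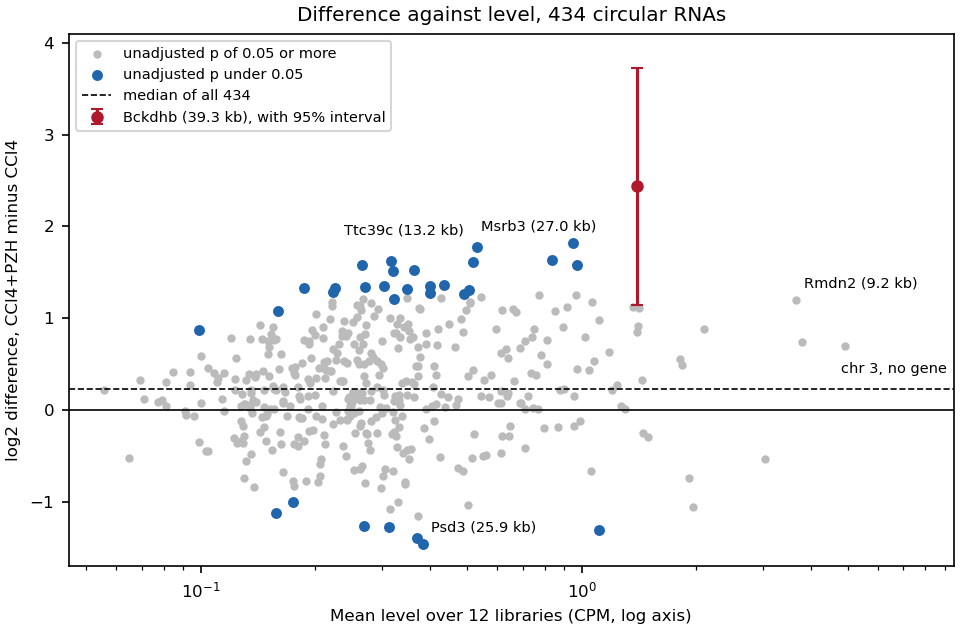
Each point is 1 of the 434 circular RNAs, by its mean level over the 12 livers (CPM, log axis) and its log2 difference, CCl4+PZH minus CCl4. Blue points have an unadjusted limma p under 0.05 (24 above 0, 7 below), the dashed line is the median of 0.23, and the red bar is the 95% interval of the Bckdhb circular RNA, 1.15 to 3.73.

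Bckdhb encodes the E1 beta chain of BCKDH, the mitochondrial dehydrogenase complex that carries out the irreversible step in the breakdown of leucine, isoleucine and valine. Its circular RNA of smallest p spans 39299 bp of GRCm38 (chromosome 9, 83952524 to 83991822, plus strand) and begins 27413 bp into the gene. In the CCl4 livers 1, 2, 4, 5, 7 and 8 it stood at 0.429, 0, 0.686, 0.489, 0.175 and 0.552 CPM. In the CCl4+PZH livers 1, 2, 3, 6, 7 and 8 it stood at 1.85, 1.76, 2.06, 2.07, 3.32 and 3.44 CPM. The lowest treated liver therefore exceeded the highest CCl4 liver, and the group means were 0.388 ± 0.254 and 2.41 ± 0.755 CPM (SD, n = 6 each), a ratio of 6.22. Those levels rest on 20 and 103 recovered reads. The log2 difference was 2.44 (limma SE 0.66, 95% interval 1.15 to 3.73, unadjusted p = 0.000216, adjusted p = 0.0939). It did not pass over the 434.

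Whether it passed depended on a few settings. The limma adjusted p was 0.0443 without CCl4 8, 0.0273 without CCl4 8 and CCl4+PZH 1, 0.0499 when only circular RNAs at or above the median mean level were tested, and 0.0175 without the intensity trend and with a robust spread. Over the other settings tried it ran from 0.0526 (circular RNAs above 0 in 8 or more libraries) to 0.836 (edgeR with TMM on the recovered reads), with 0.361 after rescaling to the table sum and 0.781 when the control libraries shared the estimate of the spread. The difference kept its sign in all 32 other settings, from 1.66 to 2.97 where it was a log2 value.

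Bckdhb hosts 2 further circular RNAs. One ends at the same base and starts 241 bp upstream (83952283 to 83991822). It stood at 0 to 0.46 CPM in CCl4 livers (median 0.13) and 0 to 0.603 CPM in treated livers (median 0.262), on 8 and 12 reads, and the groups overlapped (log2 0.52, 95% interval −0.68 to 1.73, limma adjusted p = 0.891). The other lies further downstream (83988776 to 84012619) and stood at 0.411 to 1.57 CPM in CCl4 and 0.148 to 1.96 CPM in treated livers, with medians of 0.98 and 1.08 (log2 −0.12, 95% interval −1.40 to 1.17, limma adjusted p = 0.992). Summed over its 3 circular RNAs, Bckdhb reached 1.49 ± 0.388 CPM in CCl4 livers and 3.71 ± 1.25 CPM in treated livers (SD, n = 6 each; log2 1.21, limma adjusted p = 0.568 over 374 hosts).

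A share within the host does not depend on how a library was scaled. The 39.3 kb circular RNA made up 20.0%, 0%, 55.6%, 44.4%, 12.5% and 31.6% of the Bckdhb back-splice signal in the CCl4 livers, in the order given above. In the treated livers it made up 70.4%, 48.3%, 51.9%, 87.5%, 56.4% and 90.9%. CCl4 4, at 55.6%, lay above the treated livers 2 and 3, and otherwise the groups were apart. The means were 27.3 ± 20.6% and 67.6 ± 18.4% (SD, n = 6 each; exact permutation p = 0.00649, adjusted p = 0.133 over 41 hosts).

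**Figure D3:**
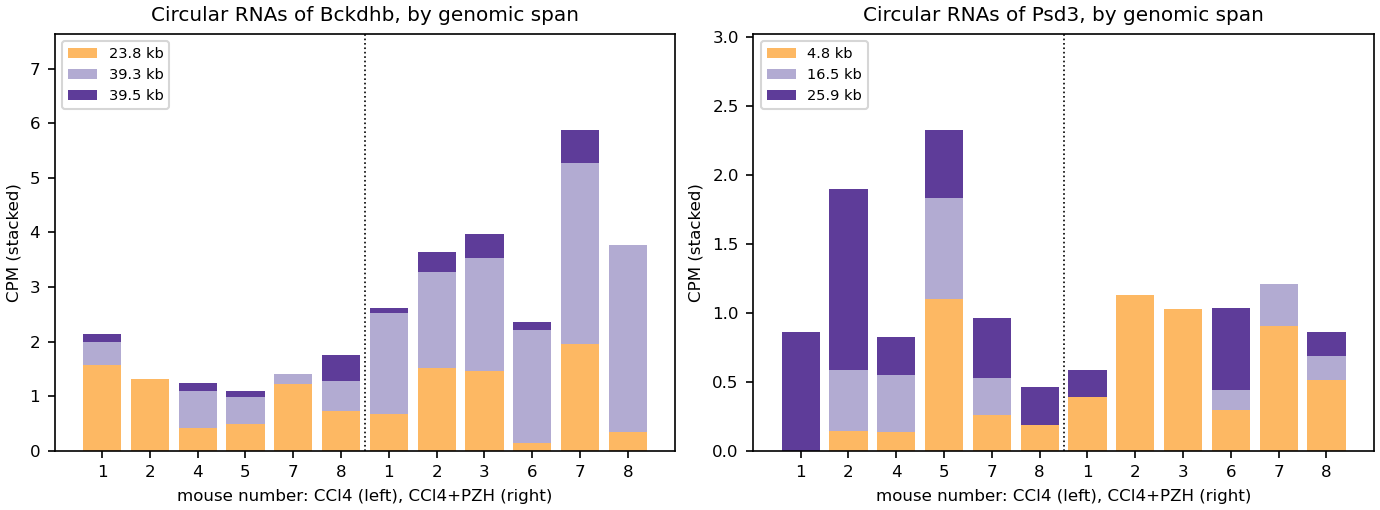
Stacked levels (CPM) of the 3 circular RNAs of Bckdhb (left) and the 3 of Psd3 (right) in each mouse, CCl4 left and CCl4+PZH right of the dotted line, coloured by genomic span. The 39.3 kb circular RNA of Bckdhb reaches at most 0.686 CPM in a CCl4 liver and at least 1.76 CPM in a treated one, while the 25.9 kb circular RNA of Psd3 is at 0 in 3 treated livers.

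Psd3, a guanine nucleotide exchange factor for the small GTPase Arf6, also hosts 3 circular RNAs, and their log2 differences were of both signs. The 25.9 kb circular RNA (chromosome 8, 67882981 to 67908889) stood at 0.858, 1.31, 0.274, 0.489, 0.437 and 0.276 CPM in the CCl4 livers. In treated livers it stood at 0.194, 0, 0, 0.591, 0 and 0.172 CPM. It was above 0 in 6 CCl4 livers and 3 treated ones, with CCl4+PZH 6 alone among the CCl4 values (log2 −1.46, SE 0.64, limma adjusted p = 0.648). The 4.8 kb circular RNA that ends at the same base (67904117 to 67908889) stood at 0 to 1.1 CPM in CCl4 (median 0.165) and 0.295 to 1.13 CPM in treated livers (median 0.71), a log2 difference of 1.17 in the other direction (limma adjusted p = 0.648). The remaining one (67741761 to 67758265) had a log2 difference of −0.72 (limma adjusted p = 0.747). Their sum was 1.22 ± 0.723 CPM in CCl4 and 0.974 ± 0.224 CPM in treated livers (SD, n = 6 each; log2 −0.15, limma adjusted p = 0.98). The share of the 4.8 kb form was 23.2 ± 18.5% in CCl4 and 71.7 ± 27.0% in treated livers (SD, n = 6 each; exact permutation p = 0.00649, adjusted p = 0.133), and CCl4+PZH 6, at 28.6%, was the treated liver among the CCl4 range.

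Of the 41 hosts whose shares could be compared, 0 passed (0%), and Bckdhb and Psd3 were the 2 at an unadjusted exact permutation p under 0.05. Next by p was Adgre1, which encodes the macrophage surface marker F4/80. Its main circular RNA (chromosome 17, 57419322 to 57420524) made up 54.2 ± 22.5% of the host's signal in CCl4 and 78.9 ± 16.6% in treated livers (SD, n = 6 each; exact permutation p = 0.0584, adjusted p = 0.621). With at least 5 reads of the host required in a library, 19 hosts remained, and the adjusted exact p of Bckdhb and Psd3 was 0.0617. Pairs of circular RNAs of 1 host that share a start or an end numbered 33, and the 2 members of 14 pairs had log2 differences of opposite sign. The median size of the difference between members was 0.56. The pairs that differed most were those of Psd3, then of Arhgap32, Mark3, Bckdhb and Tlk1, named after their values were seen.

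The other circular RNAs of smallest p are described by role, all with a limma adjusted p of 0.61 unless another is given. Their fitted differences rest on few reads and on the pseudocount, and most groups overlapped. Msrb3 encodes a methionine sulfoxide reductase that repairs oxidised methionine. Its circular RNA (chromosome 10, 120825108 to 120852092) stood at 0 to 2.48 CPM in CCl4 livers (median 0.114) and 0.252 to 3.32 CPM in treated ones (median 1.18). CCl4 2 was the high CCl4 liver, and the other 5 reached at most 0.286 CPM, which overlaps only the lowest treated liver (log2 1.82, SE 0.65).

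Members of the ubiquitin system came next. Arih1 is a ubiquitin ligase of the RING-between-RING class that works with cullin ligases. Its circular RNA of 17.7 kb (chromosome 9, 59436771 to 59454469) had 1 read over the 6 CCl4 livers and 21 over the treated ones, and stood at 0 to 1.47 CPM in treated livers (median 0.465). It was above 0 in 1 and 4 livers (log2 1.58, SE 0.57), and over the alternative settings the fitted difference ran from 0.75 to 3.95. A longer circular RNA of Arih1 with the same end (59426123 to 59454469) had a log2 difference of 0.29 (adjusted p = 0.95). Ube2g2, a conjugating enzyme of protein degradation at the endoplasmic reticulum, hosts a circular RNA of 169 bp (chromosome 10, 77630726 to 77630894). It stood at 0 to 0.489 CPM in CCl4 (median 0) and 0 to 1.2 CPM in treated livers (median 0.463), on 5 and 23 reads (log2 1.52).

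Ttc39c encodes a tetratricopeptide repeat protein. Its 13.2 kb circular RNA (chromosome 18, 12684837 to 12698059) stood at 0 to 0.367 CPM in CCl4 (median 0.133) and 0.0971 to 1.62 CPM in treated livers (median 1.02). CCl4+PZH 1 was the only treated liver in the CCl4 range, and without it the groups did not overlap (log2 1.78, SE 0.64). The values that then lay closest, 0.367 CPM in CCl4 5 and 0.515 CPM in CCl4+PZH 8, rest on 3 reads each. Its other circular RNAs had log2 differences of 1.12 (12728620 to 12730117, adjusted p = 0.655) and 0.53 (12684837 to 12689887, adjusted p = 0.891), and the first became −0.40 with the summed level in the fit. Summed over the 3, Ttc39c reached 0.989 ± 0.807 CPM in CCl4 livers and 3.29 ± 2.31 CPM in treated livers (SD, n = 6 each; log2 1.53, limma adjusted p = 0.568 over hosts).

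Cyp1a2, a cytochrome P450 of hepatocytes around the central vein, hosts a circular RNA of 1353 bp (chromosome 9, 57678987 to 57680339). It had 1 read in CCl4, in mouse 1, and 15 in treated livers, where it stood at 0 to 1.01 CPM (median 0.246) and was above 0 in 5 of 6 (log2 1.33, SE 0.54). Without CCl4+PZH 1, the treated liver at 0, its groups did not overlap, and those of several other circular RNAs did not either. For Cyp1a2 this separates 1 read in CCl4 1 (0.143 CPM) from 1 read in CCl4+PZH 3 (0.147 CPM) and 1 in CCl4+PZH 6 (0.148 CPM). Only the value of 1 read in each library sets them apart. Slc33a1, the transporter that carries acetyl-CoA into the endoplasmic reticulum, also had 1 read in CCl4, and 17 in 4 treated livers (median 0.35 CPM, log2 1.32).

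Egfr is the epidermal growth factor receptor, a receptor kinase active in liver regeneration. Its circular RNA (chromosome 11, 16881464 to 16883613) was better covered, with 27 and 59 reads. It stood at 0 to 1.59 CPM in CCl4 (median 0.365) and 0.486 to 2.07 CPM in treated livers (median 1.57), with means of 0.553 ± 0.628 and 1.39 ± 0.669 CPM (SD, n = 6 each; log2 1.58, limma adjusted p = 0.61). CCl4 1 and CCl4 5 reached the treated range. Cnksr3, a scaffold gene, had 2 reads in CCl4 and 19 in treated livers (log2 1.29, adjusted p = 0.648). Lrrc28, a leucine-rich repeat gene, stood at 0 to 0.367 CPM in CCl4 (median 0.0685) and 0 to 1.03 CPM in treated livers (median 0.62; log2 1.52).

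Golph3, a Golgi membrane protein, was the second lower one among the 15 of smallest p, after Psd3. Its circular RNA (chromosome 15, 12339628 to 12343151) stood at 0 to 0.572 CPM in CCl4 (median 0.318) and had 1 read in treated livers, in mouse 2 (log2 −1.12, SE 0.50, limma adjusted p = 0.648). The remaining 3 of the 15 lie in the long non-coding RNA gene Gm39583 (log2 1.62) and in the pseudogenes Gm9762 (1.64) and Mug-ps1 (1.61), and are uncertain where near-identical copies share reads. Mug-ps1 hosts others at −0.84 (adjusted p = 0.655) and 0.04 (adjusted p = 0.992). The 5 further circular RNAs at an unadjusted p under 0.05 that were lower in treated livers, most of them named after their values were seen, lie in Nmt1 (log2 −1.39), Tlcd4 (−1.31), Snx5 (−1.27), Dcp2 (−1.27) and Trpm7 (−1.01), each with a limma adjusted p of 0.648.

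**Figure D4:**
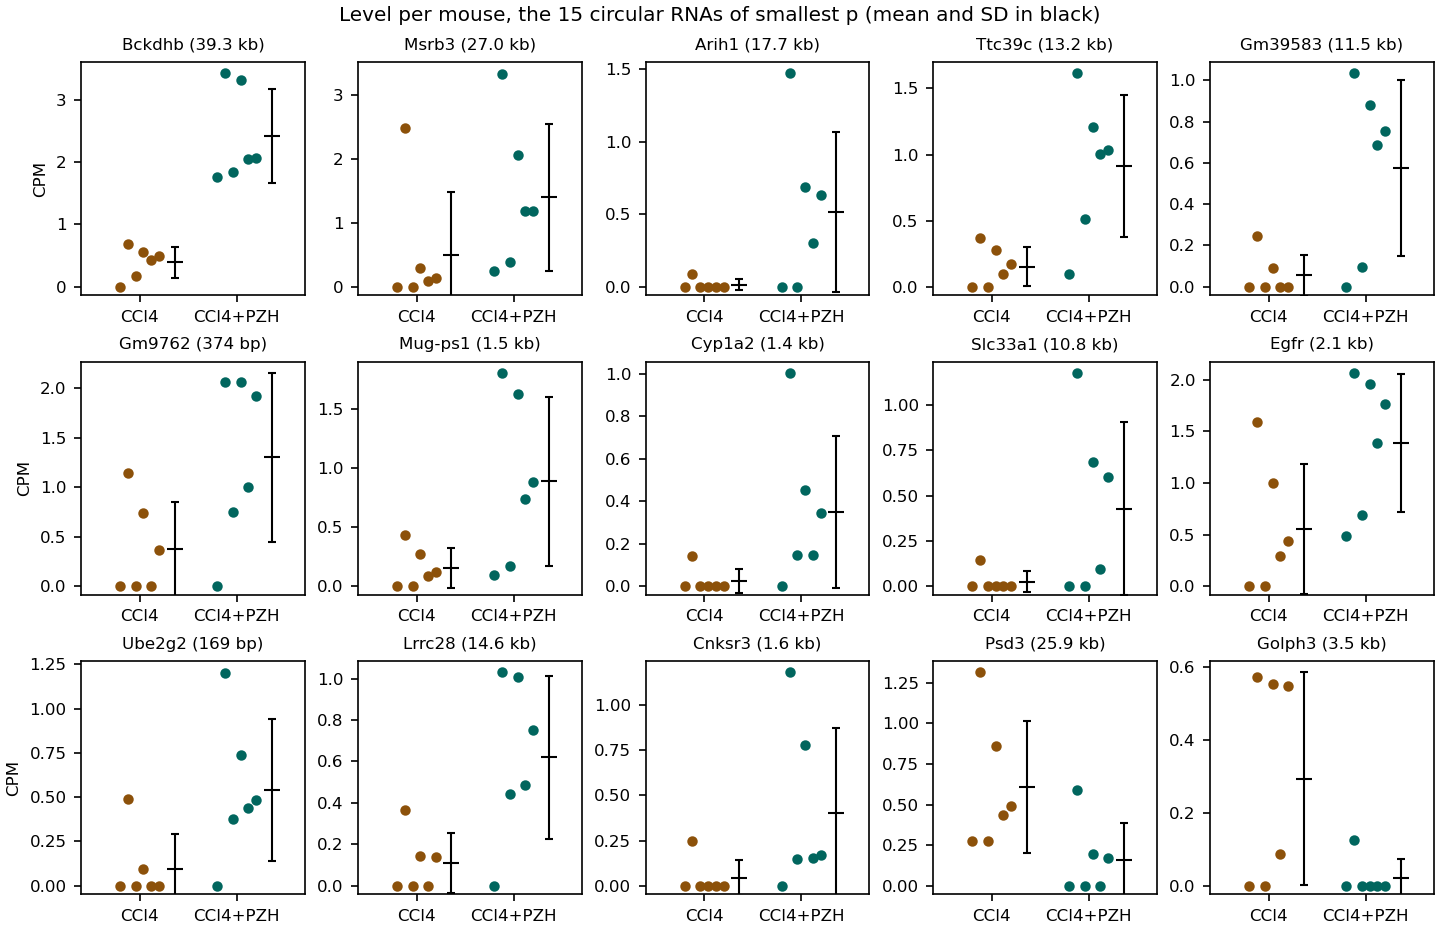
Levels (CPM, separate axes) of the 15 circular RNAs of smallest p in the 6 CCl4 (brown) and 6 CCl4+PZH (green) livers, with the genomic span in each title and mean and SD in black; bars that would reach below 0 are clipped. In 13 panels the treated mean is higher and in 2, Psd3 and Golph3, lower; Bckdhb is the panel in which no points of the 2 groups overlap.

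The most abundant circular RNAs, where counting error is least, did not pass either. The highest mean over the 12 livers belonged to one on chromosome 3 that lies in no annotated gene (5860581 to 5860757, 177 bp), at 4.89 ± 3.62 CPM in CCl4 and 4.97 ± 2.53 CPM in treated livers (SD, n = 6 each; log2 0.69, limma adjusted p = 0.828). That of Ube3a, the ubiquitin ligase lost in Angelman syndrome, stood at 0 to 3.8 CPM in CCl4 and 0.151 to 9.41 CPM in treated livers, with medians of 2.8 and 5.11 (log2 0.74, adjusted p = 0.78). Rmdn2 encodes a regulator of microtubule dynamics, and its circular RNA (chromosome 17, 79650302 to 79659473) stood at 1.38 to 3.07 CPM in CCl4 (median 1.82) and 2.36 to 8.68 CPM in treated livers (median 4.79), on 105 and 222 reads (log2 1.20, 95% interval −0.10 to 2.496, limma adjusted p = 0.648).

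Gramd1c encodes a sterol transfer protein. Its circular RNA stood at 0 to 4.77 CPM in CCl4 and 0 to 6.87 CPM in treated livers (log2 −0.54, limma adjusted p = 0.891). The means, 2.95 and 3.11 CPM, point the other way, with 2 treated livers and CCl4 7 at 0. Alg12, a mannosyltransferase of protein glycosylation, had log2 0.88, and the Polycomb subunit gene Eed 0.49. The zinc finger gene Zc3h7a had −0.75, Erbin, an adaptor of the receptor ERBB2, −1.05, the Ras inhibitor gene Rasa2 −0.29 and the long non-coding RNA Pvt1 0.56. Their limma adjusted p-values ran from 0.655 to 0.982, and the groups overlapped in every one. Several of these differences lean on single livers at 0 beside well-covered ones. In mouse order, Erbin had 19, 17, 0, 19, 23 and 0 reads in treated livers, and 7 to 30 in CCl4 livers. Zc3h7a had 0, 14, 14, 19, 19 and 0 reads in treated livers, and 0 in CCl4 4. Likewise at 0 were CCl4 8 for Alg12, CCl4 4 for Pvt1 and CCl4 2 for the circular RNA on chromosome 3. Wide intervals were the rule: the 95% interval lay between −1 and 1 for 10 of the 434, a number that was 0 with a smaller pseudocount and 329 with one 4 times as large. The 5 of narrowest interval, in Tnks2, Brap, Rere, Rhpn2 and Hacl1, had 5 to 7 reads over all 12 livers, so a narrow interval marks values near 0 and not better measurement.

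Host genes were also read as lists by role, chosen with earlier results of these data known. Each count is described beside all 434, where 0 were called, 303 were above 0 and the median was 0.23; no list was tested as a set. Of 22 lists, 19 had members, and 168 of the 434 circular RNAs belong to a list. Amino acid and nucleotide enzymes had 12 circular RNAs from 9 hosts, 9 of them above 0, with a median of 0.56; the median was 0.24 after rescaling to the table sum and −0.16 by DESeq2. Bckdhb leads this list. After it came the glutaminase gene Gls2, with medians of 0.0715 CPM in CCl4 and 0.553 CPM in treated livers (log2 1.27), and Cth, an enzyme of cysteine synthesis, with medians of 0.516 and 1.16 CPM (log2 1.26). Both were named after their values were seen, and their limma adjusted p was 0.648.

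Glucose and glycogen genes had 4, 3 above 0, with a median of 0.15, which was −0.090 after rescaling to the table sum and −0.22 by DESeq2, with 1 above 0 in each. Phkb, a phosphorylase kinase subunit, had 0.99 (limma adjusted p = 0.655). Lipid genes had 13, 7 above 0, with a median of 0.02, which was −0.11 after rescaling to the table sum and −0.21 by DESeq2. The lipid member of smallest p was a circular RNA of Tlcd4 (chromosome 3, 121228310 to 121235764), at 0.368 to 2.08 CPM in CCl4 (median 1.33) and 0 to 2.41 CPM in treated livers (median 0.369), where 3 were at 0 and 3 were not (log2 −1.31, limma adjusted p = 0.648). Mlxipl, the carbohydrate-responsive regulator of fat synthesis, had log2 1.14 (adjusted p = 0.648) and was named after its values were seen.

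Bile acid, cholesterol and transporter genes had 10 circular RNAs, 5 above 0, with a median of −0.06, which was −0.32 after rescaling to the table sum, −0.56 by DESeq2 and 0.069 by edgeR with the implied totals. The uptake transporter Slco1b2 (chromosome 6, 141648489 to 141657606) had 0.77 (limma adjusted p = 0.657), on 4 and 9 reads. Drug metabolism genes had 5, 3 above 0 and 2 below, with a median of 0.07. The median was −0.28 after rescaling to the table sum and −0.25 by DESeq2, with 2 above 0 in each. Of the 5, Cyp1a2 and Pon1, which encodes the plasma enzyme paraoxonase, were at an unadjusted limma p under 0.05. Pon1, named after its values were seen, stood at 0 to 0.276 CPM in CCl4 (median 0.105) and 0 to 1.13 CPM in treated livers (median 0.62; log2 1.32, limma adjusted p = 0.648). Plasma protein genes had 6, 5 above 0, with a median of 0.24; 3 were above 0 after rescaling to the table sum, and by DESeq2 2 were, with a median of −0.21. They were led by a circular RNA of the complement factor H-related gene Cfhr3 at 0.86 (limma adjusted p = 0.727); that family shares near-identical copies.

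Lists of other cells in liver were thin. Macrophage genes had 4 circular RNAs, 3 in Adgre1 and 1 in the efferocytosis receptor gene Mertk. On the authors' scale 2 were above 0 and the median was −0.22, or 0.08 with 1 circular RNA taken per host. The median was −0.45 after rescaling to the table sum and −1.42 by DESeq2, with 0 above 0 in each. The summed level of the 4 was 0.368 to 4.66 CPM in CCl4 livers (median 1.85). In treated livers it was 0.68 to 3.02 CPM (median 1.41), so the ranges overlapped. The Adgre1 circular RNA of smallest p (chromosome 17, 57406834 to 57408495) stood at 0 to 1.29 CPM in CCl4 (median 0.474) and 0 to 0.344 CPM in treated livers (median 0.124; log2 −1.003, limma adjusted p = 0.657). The other Adgre1 values were −0.44 (57418888 to 57420524) and 0.15, the latter negative after rescaling to the table sum (−0.25), by TMM (−0.17) and after quantile normalization (−0.24). Lymphocyte genes had 2, in Ikzf1 and in Foxp1, which other cells express too, with a median of 0.57, which was 0.25 after rescaling to the table sum and −0.068 by DESeq2, where 0 of the 2 were above 0. Stellate cell and matrix genes had 1, in the membrane metalloproteinase gene Mmp15, at 0.85 (limma adjusted p = 0.727). The lists for endothelium, cholangiocytes and red blood cells had 0 members, so those cells cannot be followed here.

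Among signalling and growth genes, Msrb3 was the only member of the oxidative stress list. Inflammatory and fibrotic signalling had 3 circular RNAs, with a median of −0.19 (−0.41 after rescaling to the table sum, −1.09 by DESeq2) and the TGF-beta mediator gene Smad4 at 0.65 (limma adjusted p = 0.828). Liver cancer and growth factor genes had 8, 6 above 0, with a median of 0.43 (0.24 after rescaling to the table sum, 0.21 by DESeq2), and Egfr had the smallest p. All 6 of cell cycle and DNA repair genes were above 0, with a median of 0.58; 6 stayed so after rescaling to the table sum (median 0.39), and 3 by DESeq2 (median 0.11). The member of smallest p, a circular RNA of the mitotic phosphatase gene Cdc14b, had 0.97 (limma adjusted p = 0.666). Protein kinase genes had 23, 17 above 0, with a median of 0.44. After rescaling to the table sum 13 were above 0 and the median was 0.14, and by DESeq2 12 and 0.11. In this list a circular RNA of Mark3 at 1.31 joined Egfr at an unadjusted p under 0.05. Ubiquitin ligase and conjugase genes had 10, 8 above 0, with a median of 0.56, which was 0.33 after rescaling to the table sum and 0.23 by DESeq2.

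Small GTPase regulators had 23 circular RNAs, 14 above 0, with a median of 0.05. After rescaling to the table sum 8 were above 0 and the median was −0.18, and by DESeq2 8 and −0.40. The list held both Psd3 at −1.46 and Dennd5b at 1.37 (limma adjusted p = 0.648 each). Chromatin and coregulator genes had 21, 11 above 0, with a median of 0.12 that was −0.18 after rescaling to the table sum and −0.44 by DESeq2. Arid5b, a DNA-binding coregulator, led them at 1.002 (limma adjusted p = 0.655), with 1 treated liver, mouse 3, at 2.21 CPM. RNA binding, processing and translation genes had 20, 14 above 0, with a median of 0.33, which was 0.11 after rescaling to the table sum and −0.017 by DESeq2. Their member of smallest p was Metap1d, a mitochondrial methionine aminopeptidase, at 0 to 0.274 CPM in CCl4 (median 0.105) and 0.0971 to 0.88 CPM in treated livers (median 0.516; log2 1.35, limma adjusted p = 0.648). The 19 circular RNAs of hosts well studied for them had a median of 0.15, which was −0.021 after rescaling to the table sum and −0.13 by DESeq2, with Rbm33 at 1.13 (limma adjusted p = 0.648).

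**Figure D5:**
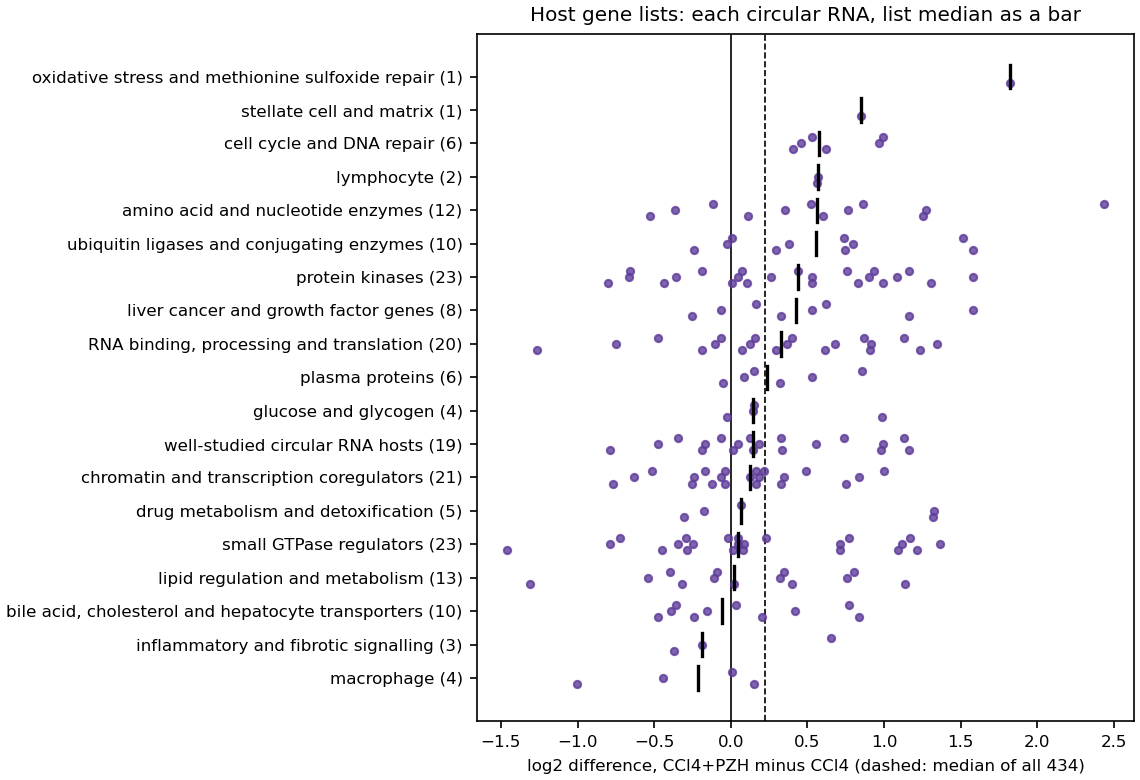
Log2 differences, CCl4+PZH minus CCl4, of the circular RNAs in each host gene list (points), with the list's median as a black bar and the number of circular RNAs in brackets; a circular RNA in 2 lists is drawn in both. The dashed line is the median of all 434, 0.23, and list medians run from −0.22 (macrophage, 4) to 1.82 (oxidative stress, 1).

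Summed by host, 0 of 374 genes passed (0%), with 31 at an unadjusted limma p under 0.05 and a smallest adjusted p of 0.568. Presence was compared for the 405 circular RNAs not above 0 in all 12 livers, and 0 passed Fisher's exact test (0%), with 0 at an unadjusted p under 0.05 and a smallest p of 0.0606. Over the table, 186 were above 0 in more treated livers than CCl4 livers, 124 in fewer and 124 in as many. Treated libraries also held more recovered reads on average (1481 against 1231), and presence of single circular RNAs was not compared at equal reads. Presence differed by 4 livers or more in 8. Nbas, Rbm33, Slc8b1 and Wwc2 went from 2 CCl4 livers to 6 treated ones, and Cnksr3, Rmnd5a and Cyp1a2 from 1 to 5. Dcp2, a decapping enzyme gene, went from 5 to 1. All but Rbm33, Cnksr3 and Cyp1a2 were named after their values were seen. Every circular RNA of the table is above 0 in at least 9 of the 18 libraries and in at least 4 of these 12. One present in a single group of 6 would fall short of 9, while one absent from a single group could still be listed.

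Genomic span, which the comparison did not use, ran from 143 to 189347 bp with a median of 4691 bp. The median log2 difference was 0.24 for the 66 under 1 kb, 0.18 for the 248 of 1 to 10 kb, 0.33 for the 107 of 10 to 50 kb and 0.77 for the 13 over 50 kb. The last class rests on 5 to 9 circular RNAs detected per CCl4 liver and 7 to 10 per treated liver, with summed levels of 0.919 to 3.02 and 2.43 to 7.35 CPM, and was not tested. By host, 419 of the 434 fall in coding genes, 4 in lncRNA genes, 6 in pseudogenes and 5 in no gene. No span holds an annotated miRNA hairpin.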

How the data were processed

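Circular RNA was measured in liver RNA depleted of ribosomal RNA, extracted with TRIzol and sequenced from both ends on a HiSeq 4000, per the labels' protocols. The authors deposited 1 table of CPM for 434 circular RNAs, each identified by its coordinates. The submitters' processing notes list GRCm38 and the tools HISAT2 2.2.1, Bowtie2 2.5.1, StringTie 2.1.5, cutadapt 4.2 and FastQC 0.11.9. Which program called back-splices, what total the CPM were scaled to and how the 434 were filtered was not given in the sources used here. Dividing by the smallest non-zero value of a library gave reads within 0.1 of a whole number for 5208 of 5208 values (100%), so whole reads were recovered, 930 to 1869 per library. They served the count tests only.

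Hosts were assigned by position in GRCm38.p6 (RefSeq): a gene had to contain both ends, and among several the shortest coding gene was taken. This gave 429 of them a host, in 374 genes. The table has no strand, so a host and a gene antisense to it cannot be separated, and exons were not used.

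Groups were compared with limma 3.58.1 in R 4.3.3 on log2(CPM + 0.14005), a pseudocount equal to the median smallest non-zero value, with an intensity trend, 2 groups of 6, two-sided, Benjamini-Hochberg over 434, threshold 0.05. The filter, above 0 in 4 or more of 12, removed 0. limma pooled the spread over all circular RNAs, so an interval or a limma p-value reflects that pooled spread. Fold changes on this scale understate low values. Exact permutation tests used every regrouping, 924 for 6 against 6 and fewer where a library was left out. Alternatives were pseudocounts, filters, scalings, weights, edgeR 4.0.16 and DESeq2 1.42.0 on recovered reads, a rank test, a block on mouse number and each library left out. Added after seeing the data were 2 libraries left out together, summed CPM as a covariate and unpooled spread. The test was checked on simulated counts in which 200 of the 434 were changed. It recovered 29.5% of 4-fold, 80.0% of 8-fold and 93.5% of 16-fold changes. A changed circular RNA kept its mean over the 12 libraries in a group and had that mean multiplied by the fold in the other. It thus had more reads than its real counterpart, so these percentages can overstate recovery at the real read counts. With fewer changed at once, the adjustment would be stricter, and that was not simulated.

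Named circular RNAs were the 15 of smallest p, the 10 of highest mean, any whose groups do not overlap, the member of smallest p of each host list, others of the same hosts, 3 hosts by share and the 5 of narrowest interval, 53 in all. Members, lists and this rule were chosen with earlier results of these data known. All else used Python 3.11.15, scipy 1.17.1, numpy 2.4.6, matplotlib 3.10.9 and pandas 2.3.3.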

Additional observations from a re-analysis of the deposited data

Results flagged for a closer look

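Among the 6 mice of a group, a value counted as far from the rest when its gap to its neighbour, as a share of the range, was above the 95% limit given by Dixon. This held in 22 of 116 groups examined. Chance would give 5.8 were the values normal, which they are not: many are 0, and 1 mouse above 0 among 5 at 0 meets the limit by construction.

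Mice alone above 0 in their group were Arih1 in CCl4 7 (0.0874 CPM), Cyp1a2 and Slc33a1 in CCl4 1 (0.143 CPM each), Cnksr3 in CCl4 5 (0.245 CPM), Golph3 in CCl4+PZH 2 (0.126 CPM), Slco1b2 in CCl4 7 (0.35 CPM), Tnks2 in CCl4+PZH 6 (0.148 CPM) and Brap in CCl4 4 (0.274 CPM).

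The others were high against low values in the rest of their group. Msrb3 stood at 2.48 CPM in CCl4 2, where the next CCl4 liver had 0.286 CPM. CCl4 5 stood apart for Ube2g2 (0.489 CPM), Phkb (0.489 CPM) and the 4.8 kb circular RNA of Psd3 (1.1 CPM). CCl4+PZH 6 did so for the 25.9 kb circular RNA of Psd3 (0.591 CPM), Rbm33 (0.886 CPM) and Rhpn2 (0.443 CPM), and CCl4 2 for Rbm33 (0.438 CPM) and Rhpn2 (0.292 CPM). Arid5b stood at 2.21 CPM in CCl4+PZH 3, a Ttc39c circular RNA (12684837 to 12689887) at 0.715 CPM in CCl4 1, the 39.5 kb Bckdhb circular RNA at 0.46 CPM in CCl4 8 and Hacl1 at 0.452 CPM in CCl4+PZH 7. One was low: Ube3a was listed at 0 in CCl4 8, where the next CCl4 liver had 2.45 CPM.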

How the results depend on the processing

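The number called by limma, 0, became 1 in 4 settings, each time the 39.3 kb Bckdhb circular RNA: with the filter on mean CPM, without the trend, without CCl4 8, and without CCl4 8 and CCl4+PZH 1; over single libraries left out it was 0 to 1. Those 2 low libraries also moved summed CPM past the threshold (77.4 CPM without CCl4+PZH 1, 64.8 CPM without both; 46.4 to 77.4 CPM over single libraries). Groups that do not overlap numbered 1, and 2 after rescaling to the table sum, which adds Nmt1, lower. Over single libraries left out the number ran from 1 to 7: 7 without CCl4+PZH 1, 3 without CCl4 2 or 5, and 2 without CCl4 1 or 7 or CCl4+PZH 3, 6 or 7. It was 8 without both low libraries. Intervals within −1 to 1 numbered 10, and 0 with the smaller pseudocount, without the trend, and with the shared mouse numbers alone; 329 with 4 times the pseudocount; 2 without both low libraries; 3 to 7 over single libraries left out.

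Groups share the mouse numbers 1, 2, 7 and 8. Deviations of the 4 same-numbered pairs correlated at −0.154 to −0.0174, and those of the other 32 pairs at −0.119 to 0.0981. These values show no pairing by number, but with so few reads and 4 pairs they cannot exclude one. With a replicate block on those 8 libraries limma called 0 (smallest adjusted p = 0.324, 21 at an unadjusted p under 0.05), and 0 without the block (0.121, 26).

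Of 1654 alternative log2 values of the 53 named, 1583 kept their direction and side of the threshold, 4 passed it (Bckdhb) and 67 changed sign; 37 of the 53 never did. The cause was not tested. Sign changes by setting were as follows. With summed CPM in the fit: Ttc39c (12728620) −0.40, Ube3a −0.66, Eed −0.19, Rere −0.039, Adgre1 (57419322) −0.48. DESeq2: chromosome 3 −0.70, Foxp1 −0.011, Bckdhb (83952283) −0.26, Pvt1 −0.46, Rere −0.067, Adgre1 −0.48, Hacl1 −0.053, Mug-ps1 (122207897 to 122209106) −0.16. edgeR with TMM: chromosome 3 −0.30, Foxp1 −0.0047, Pvt1 −0.26, Adgre1 −0.31. edgeR with implied totals: Gramd1c 0.077, Bckdhb (83988776) 0.092. Table sum: Rere −0.0020, Adgre1 −0.25, Mug-ps1 −0.34. TMM: Adgre1 −0.17, Mug-ps1 −0.25. Quantile: Rere −0.034, Rhpn2 −0.080, Adgre1 −0.24, Hacl1 −0.0058, Mug-ps1 −0.33. Smaller pseudocount: Mug-ps1 −0.23. Rank test: Gramd1c 1 rank. Mouse numbers 1, 2, 7 and 8, with and without the block: Gramd1c 0.39, Rasa2 0.15, Rhpn2 −0.35, Mug-ps1 −0.71. Without both low libraries: Arih1 (59426123) −0.080, Hacl1 −0.10. Over single libraries left out, the ranges were Ube3a −0.011 to 1.43, chromosome 3 −0.18 to 1.03, Pvt1 −0.093 to 0.79, Gramd1c −1.32 to 0.14, Arih1 (59426123) −0.041 to 0.67, Rasa2 −0.65 to 0.069, Rere −0.16 to 0.28, Rhpn2 −0.20 to 0.36, Adgre1 −0.13 to 0.45, Bckdhb (83988776) −0.35 to 0.22, Hacl1 −0.28 to 0.27, Mug-ps1 −0.26 to 0.65.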
